A study of Saccharomyces cerevisiae with 14 samples.

Results

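Between 3 and 10 min after rapamycin reached a glutamine-grown yeast culture, genes for using poor nitrogen sources, for trehalose and glycogen, and for the general stress response rose, while genes for building ribosomes fell. The comparison set the array taken at 10 min against the array taken at 3 min in the same culture, the fermentation labelled BY005, with 1 array a side. It used 2 of the 14 arrays of the series and covered the 5449 genes for which the array carries a probe set specific to a single budding yeast gene. The question was which transcripts had begun to move at the start of the response, and in which direction. Neither side has a replicate of its own, so the error of each difference came from the 3 times at which all 3 fermentations were sampled.

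The strain was the Saccharomyces cerevisiae wild type YSBN6, grown in a batch fermentor on defined minimal medium at 30 °C, pH 5 and 1000 rpm. The medium held 20 g/L glucose and 1 g/L glutamine, and rapamycin was pulsed to 400 µg/L near an OD600 of 1. All 8 arrays of BY005, from 10 min before the pulse to 120 min after it, came from this culture. BY006 and BY007 were further cultures of the same strain and treatment, sampled 10 min before and 7 and 24 min after the pulse. No array came from a culture left without rapamycin, so rapamycin, the act of adding it and 7 further min of batch growth cannot be told apart.

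Rapamycin binds the small protein Fpr1, and the pair inhibits TOR complex 1 (TORC1), a protein kinase complex that couples growth to nutrients. In budding yeast, active TORC1 keeps the GATA activators Gln3 and Gat1 and the stress activators Msn2 and Msn4 in check, and it drives transcription of ribosomal protein and ribosome assembly genes through Sch9, Sfp1 and the repressors Dot6 and Tod6. Glutamine is a preferred nitrogen source, on which genes for poorer sources such as allantoin, proline and γ-aminobutyrate are kept low.

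All levels below are log2 of the deposited RMA intensity, and all differences are log2 differences, 10 min minus 3 min, with the standard error of the fit after ±. A gene is said to have risen or fallen where its adjusted p from limma was under 0.05. The arrays also carry probe sets for fission yeast, a species not in the culture, and the 95th percentile of these, 5.77, served as the background. A gene below it on the dimmer array has its fold given as "at least", against that value. Bright genes can be understated in their rise: at 3 min, 156 genes stood less than 1 log2 unit under the brightest gene.

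The culture looked as labelled. The glycolytic genes ADH1, PDC1, TDH3 and ENO2 and the glucose transporter gene HXT3 stood between 13.55 and 14.85 on both arrays and did not pass the test, while the gluconeogenic gene FBP1 stood at 6.67 and 6.56. PCK1, for phosphoenolpyruvate carboxykinase, rose from 7.72 to 8.33 (adjusted p = 0.0091). Of the other markers that should be low on glucose, JEN1 stood at 8.38 and 8.53 and ADH2 at 8.62 and 8.31. Both lay above the background, and neither passed. The a-cell genes MFA1, MFA2, STE2 and BAR1 were all above 11.9 and the α-cell genes MF(ALPHA)1, MF(ALPHA)2 and STE3 all below 8.5 on both arrays. Hybridisation controls read 0.31 lower at 10 min than at 3 min and poly-A spike controls 0.36 higher, and rRNA probe sets differed by 0.08. ACT1 has separate probe sets near its 3' and its 5' end, whose difference is a sign of RNA integrity: it was 0.83 at 3 min, the highest of the 14 arrays, and 0.64 at 10 min. The median gene stood at 10.76 at 3 min, and the median difference over all genes was 0.03. The part of these control differences in the results was not tested.

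The 3 min array was close to the untreated culture. Against the steady-state array of BY005, the central 90% of genes lay between -0.15 and 0.25, with a median of 0.04, and 0 genes differed 2-fold. By 10 min, 1818 of the 5449 genes (33.4%) had changed against 3 min. Of these, 1002 rose (18.4%) and 816 fell (15%), and 2382 genes had an unadjusted p under 0.05. A log2 difference of at least 1, called a 2-fold change below, was reached by 276 of the genes that rose and 232 of those that fell. With levels under the background raised to it, these counts were 275 and 231. Counted that way, 54 genes rose and 59 fell at least 4-fold, and 12 rose and 15 fell at least 8-fold. The smallest change that passed was a rise of 0.21 and a fall of -0.22, and 34 genes that differed 2-fold or more did not pass. RNA came from all cells of the sample together, so fewer cells with a transcript and less transcript per cell cannot be told apart. RMA also gives every array the same distribution of probe intensities, so a shift common to all transcripts would not show.

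**Figure D1:**
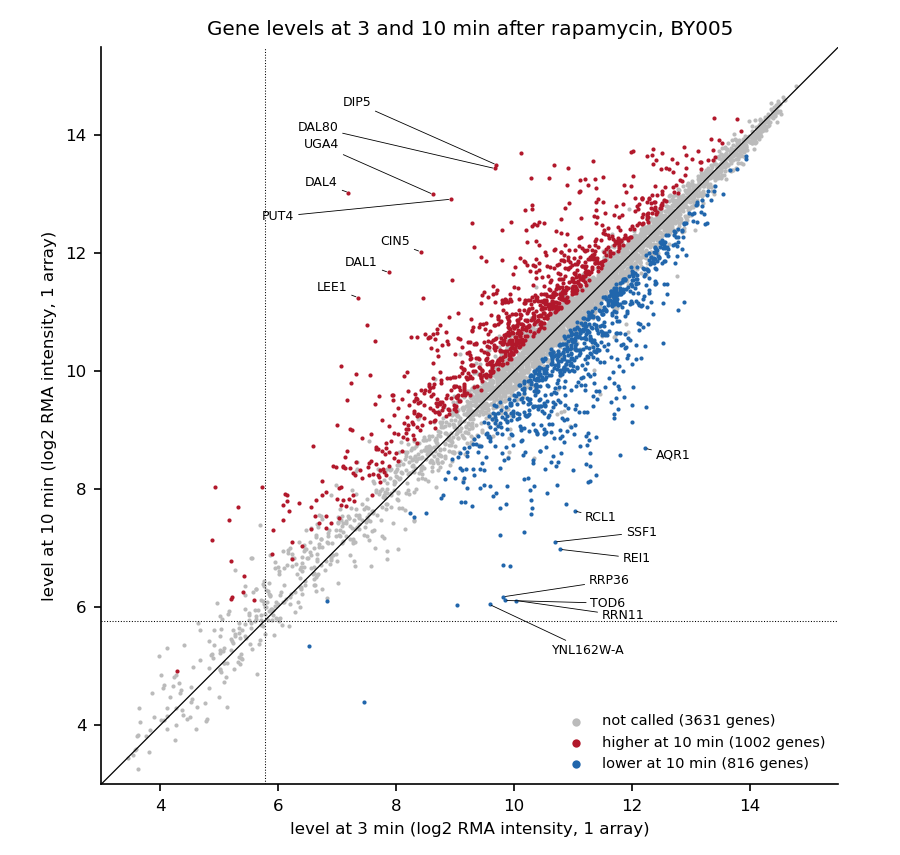
Level of each of the 5449 genes at 3 min (x axis) and at 10 min (y axis) after rapamycin in BY005, both as log2 RMA intensity from 1 array. Red and blue points are the 1002 genes that rose and the 816 that fell, grey points did not pass the test, the solid line marks equal levels and the dotted lines the background of 5.77. The 8 largest rises and the 8 largest falls are named, and DAL4 lies farthest above the line.

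Of the 27 gene lists, the highest median was that of genes for taking up and breaking down allantoin, a nitrogen store that yeast degrades through urea to ammonia. All 7 measured genes of allantoin and urea use rose, with a median difference of 3.24, against 18.4% of all genes and a median of 0.03. DAL4 (YIR028W), for the allantoin permease, stood at 7.12 at steady state, 7.19 at 3 min, 11.08 at 7 min, 13.03 at 10 min and 13.44 at 14 min. Its level at 3 min lay within 0.1 of steady state, and it was 57.3-fold higher at 10 min than at 3 min (5.84 ± 0.94, adjusted p = 0.0035). DAL1, for allantoinase, read 7.75, 7.87, 10.30, 11.68 and 12.07 at the same 5 times, a 14.0-fold rise (3.81 ± 0.54, adjusted p = 0.0028). DAL5, for the allantoate permease, rose 12.1-fold (3.59 ± 0.60), and DAL2, for allantoicase, 9.43-fold (3.24 ± 0.43). DUR3, for a urea transporter, rose 7.94-fold, from 10.29 to 13.28. DAL7, for a malate synthase, and DAL3, for ureidoglycolate lyase, rose by 2.53 and 1.91.

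Most of these genes lie side by side in the genome. The order DAL1, DAL4, DAL2, DCG1, DAL7 and DAL3 is unbroken in the R64 gene table. DCG1, a gene of unknown function that was looked up for its position, rose with the rest (2.17 ± 0.33). Outside the run, YVH1, for a phosphatase, fell (-0.80 ± 0.22, adjusted p = 0.022), and MGA2, for a membrane-bound transcription factor, did not pass (0.09 ± 0.10, adjusted p = 0.50).

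Permeases for other poor nitrogen sources followed, with 11 of 13 genes higher, 0 lower and a median of 1.79. UGA4, for the γ-aminobutyrate permease, stood at 8.57 at steady state, 8.62 at 3 min, 11.41 at 7 min, 13.00 at 10 min and 13.44 at 14 min. It rose 20.8-fold (4.38 ± 0.69, adjusted p = 0.0033) and, like DAL4, did not lie above steady state by more than 0.1 at 3 min. PUT4, for the proline permease, rose 15.9-fold (3.99 ± 0.68), from 8.93 to 12.92. DIP5, for the permease of glutamate and aspartate, rose 14.0-fold (3.81 ± 0.38), from 9.70 to 13.50, and most of that rise was already present at 7 min, at 12.74. OPT2, for an oligopeptide transporter, was later: it read 7.50, 8.82, 10.79 and 11.79 at 3, 7, 10 and 14 min. MEP2, for an ammonium permease, and GAP1, for the general amino acid permease, were bright before the pulse, at 13.30 and 13.46, and rose by 0.90 ± 0.15 and 0.61 ± 0.16. Against the steady-state array of BY005 in place of the 3 min array, GAP1 differed by 0.48 and no longer passed (adjusted p = 0.051). The 2 permease genes that did not pass were MEP3 and FCY21.

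Enzymes of proline, arginine, γ-aminobutyrate and glutamate use rose less, with 12 of 13 higher and a median of 1.07. GDH3, for a glutamate dehydrogenase that uses NADPH, rose 7.32-fold (2.87 ± 0.42), from 7.64 to 10.52. GUD1, for guanine deaminase, rose 6.28-fold and PUT1, for proline oxidase, 4.69-fold (2.23 ± 0.25). GLN1, for glutamine synthetase, rose from 12.36 to 13.77 (1.41 ± 0.15, adjusted p = 0.0026). The gene that did not pass was ASP1, for cytosolic asparaginase (-0.29).

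Among 12 regulators of nitrogen genes, 6 rose, 0 fell and the median was 0.39. DAL80, which encodes a GATA repressor, stood at 9.28 at steady state, 9.67 at 3 min, 12.61 at 7 min, 13.44 at 10 min and 13.72 at 14 min. It rose 13.6-fold (3.77 ± 0.64, adjusted p = 0.0040). GAT1, for a GATA activator, rose 2.44-fold (1.28 ± 0.28), NPR1, for a kinase that stabilises permeases, 2.09-fold and VID30, for a subunit of the GID ubiquitin ligase, 1.97-fold. GLN3, for the other GATA activator, read -0.31 and did not pass; it was picked out after its value was seen. Together the 4 nitrogen lists held 45 genes. Of these, 25 rose at least 2-fold, which is 55.6% of the lists and 9.06% of all such rises. Over all genes, 276 of 5449 rose at least 2-fold.

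**Figure D2:**
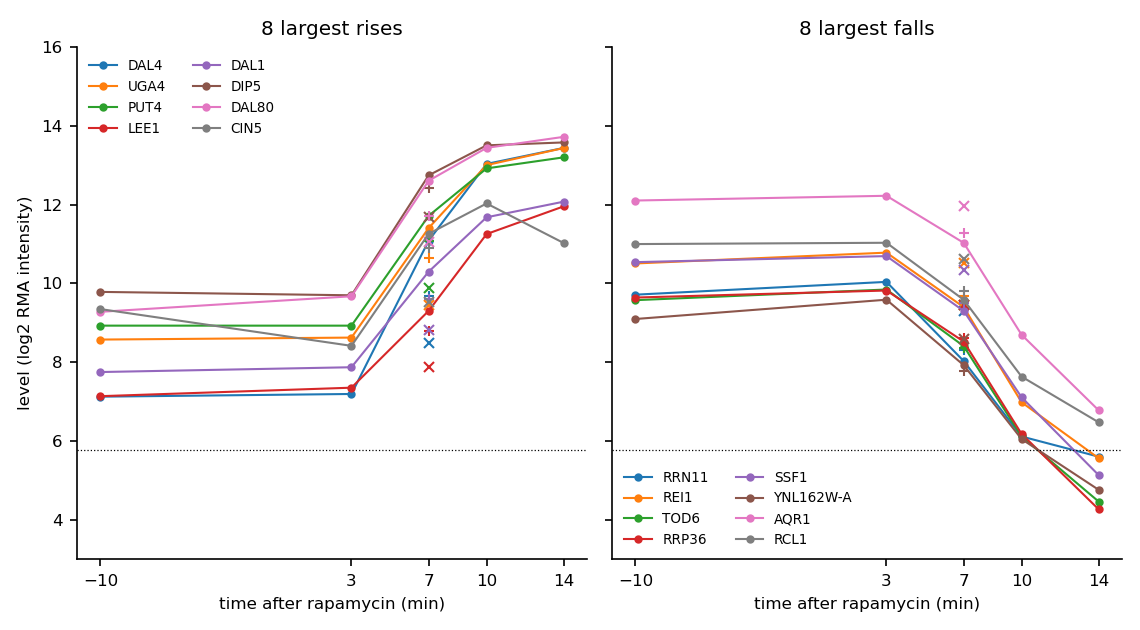
Levels of the 8 largest rises (left) and the 8 largest falls (right) on the BY005 arrays at steady state (-10 min), 3, 7, 10 and 14 min after rapamycin, as log2 RMA intensity with 1 array a time; the dotted line is the background of 5.77. Crosses (BY006) and plus signs (BY007) give the 7 min arrays of the other fermentations in the same colours. CIN5 has the largest gap between steady state and 3 min. All 8 falling genes read above steady state at 3 min, so their falls are smaller against steady state, -3.05 for YNL162W-A against -3.54. The falling genes all read lower at 14 min than at 10 min, but at 14 min only AQR1 and RCL1 lie above the background.

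Trehalose and glycogen, the reserve carbohydrates of yeast, gave a list in which 19 of 19 genes rose, with a median of 1.67. The 18 genes above the background on both arrays rose by 0.46 for GLG2 to 2.61 for GSY1. GAC1, which encodes a subunit that targets the phosphatase Glc7 to glycogen, lay below the background at 3 min (4.93) and at 8.04 at 10 min, a rise of at least 4.80-fold. GSY1, for glycogen synthase, rose 6.10-fold (2.61 ± 0.46, adjusted p = 0.0044), and GLC3, for the branching enzyme, 4.83-fold. GPH1, for the phosphorylase that breaks glycogen down, rose 4.46-fold (2.16 ± 0.29). Genes for making and for degrading the reserves were thus higher on the same array.

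Of 32 genes of the general stress response, 27 rose, 0 fell and the median was 1.26. SDP1, for a phosphatase of a MAP kinase, rose 6.94-fold (2.80 ± 0.56), from 8.45 to 11.25. HSP42, for a small heat shock protein, rose 6.43-fold and RTS3, for a presumed phosphatase subunit, 5.98-fold. CTT1, for cytosolic catalase, read 10.25, 10.19, 11.52, 12.74 and 12.94 from steady state to 14 min, a 5.86-fold rise (2.55 ± 0.58, adjusted p = 0.012). HSP12, for a membrane-stabilising protein widely read as a stress marker, was near the top of the scale before the pulse (13.95) and differed by 0.26 ± 0.09 (adjusted p = 0.064). That difference passed with an intensity trend in the variance (adjusted p = 0.019) and in 3 other settings. SSA3, for a heat shock protein of the Hsp70 family, read -0.05 and did not pass. Of the 50 genes in the stress and carbohydrate lists, 31 rose at least 2-fold, against 276 of all 5449 genes. These 31 are 62.0% of the lists and 11.2% of all such rises.

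Targets of the heat shock factor Hsf1 moved less, with 9 of 21 higher, 0 lower and a median of 0.17. HSP78, for a mitochondrial disaggregase, rose by 0.88 ± 0.15, HSP82, for a chaperone of the Hsp90 family, by 0.75 ± 0.19, and the sorting factor genes CUR1 and BTN2 by 0.70 and 0.69. The proteasome list had 3 of 34 genes higher (8.8%, against 18.4% of all genes), 1 lower and a median of 0.12. RPN4, for the activator of proteasome genes, rose by 0.43 ± 0.08, PRE4 and RPN7, for subunits, by 0.39 and 0.33, and SEM1, for another, fell (-0.25 ± 0.08). PRE4, RPN7 and SEM1 did not pass against the steady-state array of BY005, where they read 0.24, 0.19 and -0.04. RPN7 and SEM1 each lost their call in 5 of 17 other settings, and 4 of the 5 leave out a single array.

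**Figure D3:**
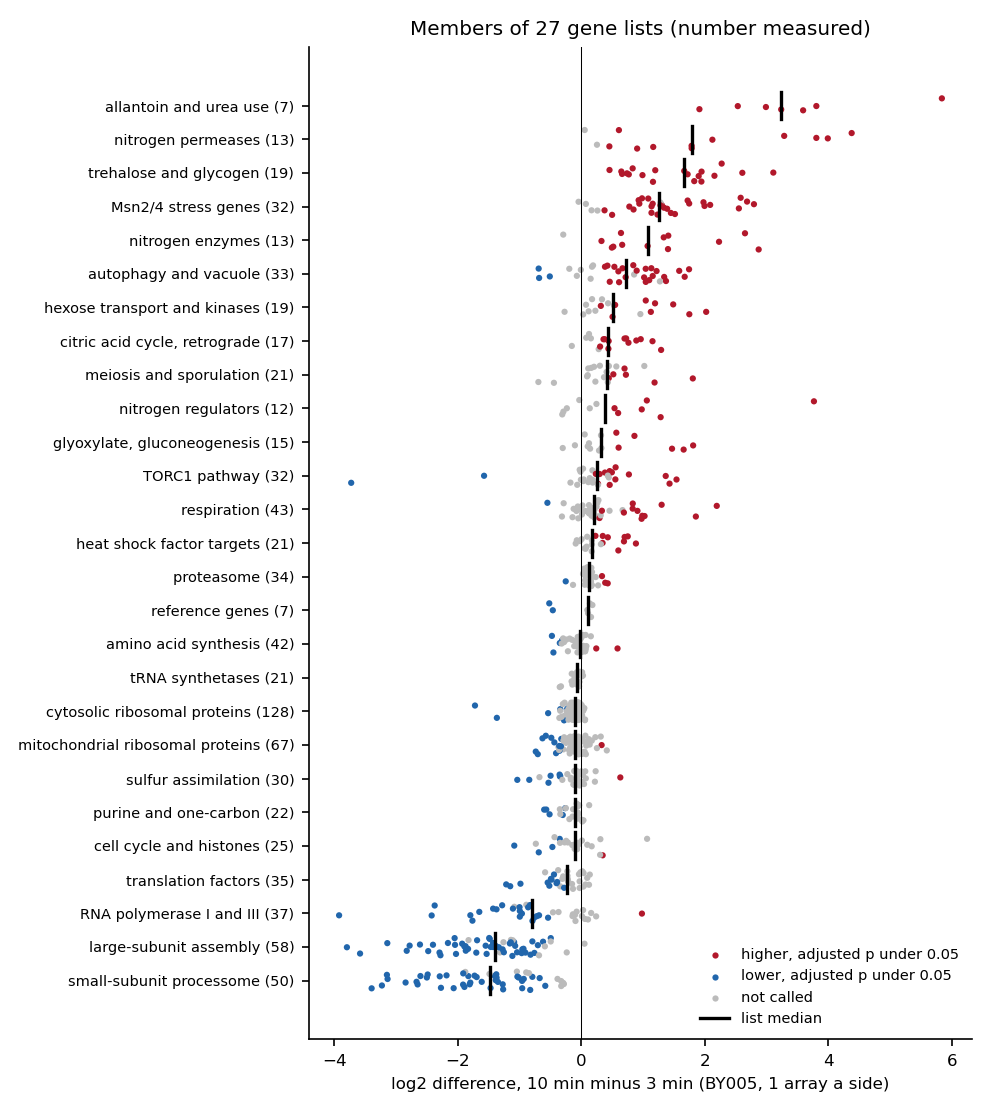
Log2 difference, 10 min minus 3 min in BY005, for every measured member of the 27 gene lists, with the number measured in brackets. Red points rose and blue points fell at an adjusted p under 0.05, grey points did not pass, black bars are list medians, and the vertical scatter within a row only separates points. The lists for allantoin and urea (median 3.24) and for the small-subunit processome (median -1.48) lie at the 2 ends.

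The lists with the lowest medians were those for making ribosomes. The small-subunit processome cleaves and folds the precursor of the small subunit's rRNA, and of its 50 genes 40 fell, 0 rose and the median was -1.48, against 15% of all genes lower. RCL1, for a nuclease of this complex, read 11.00 at steady state, 11.03 at 3 min, 9.58 at 7 min, 7.63 at 10 min and 6.47 at 14 min. It was 10.5-fold lower at 10 min than at 3 min (-3.40 ± 0.60, adjusted p = 0.0045), and its level was still dropping at 14 min. UTP15 fell 9.39-fold (-3.23 ± 0.43), UTP6 8.88-fold (-3.15 ± 0.66) and SOF1 8.81-fold (-3.14 ± 0.44), all for processome subunits. UTP13, for a further subunit, fell from 11.78 to 9.71 (-2.07 ± 0.69) with an adjusted p of 0.0499. Its adjusted p was 0.060 in the fit that blocked on fermentation, and the call was lost in 10 of 17 other settings.

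Assembly factors of the large subunit were lower too: 48 of 58 genes fell, 0 rose and the median was -1.41. REI1, which acts in the last cytoplasmic steps, stood at 10.50 at steady state, 10.78 at 3 min, 9.40 at 7 min, 6.98 at 10 min and 5.56 at 14 min. It fell 13.9-fold (-3.80 ± 0.54, adjusted p = 0.0028), and at 14 min it lay below the background. SSF1, for a nucleolar assembly factor, fell 12.0-fold (-3.59 ± 0.64), RSA4 8.84-fold, and NOG2, for a GTPase of the nuclear precursor, 7.11-fold (-2.83 ± 0.40). NSR1, for nucleolin, read 12.76 at 3 min and 11.61 at 10 min, and the difference of -1.14 ± 0.66 did not pass (adjusted p = 0.23). It passed without the BY005 array of 24 min (adjusted p = 0.019). REA1, for a large remodelling ATPase, read 0.05 and was the member that stood highest.

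RNA polymerases I and III make rRNA, 5S rRNA and tRNA, and of 37 genes for their subunits and factors 21 fell, 1 rose and the median was -0.79. RRN11 (YML043C), for a subunit of the core factor of polymerase I, had the largest fall of all genes. It read 9.71 at steady state, 10.04 at 3 min, 8.03 at 7 min, 6.11 at 10 min and 5.60 at 14 min, a 15.2-fold fall (-3.93 ± 0.54, adjusted p = 0.0027). RPA12 of polymerase I fell 5.37-fold (-2.43 ± 0.22), RPC17 of polymerase III 5.19-fold (-2.38 ± 0.30) and RPC19, shared by both, 3.48-fold (-1.80 ± 0.20). The gene that rose was MAF1, which encodes a repressor of polymerase III (0.98).

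The 3 lists for making ribosomes held 145 genes, and 137 of them read lower at 10 min than at 3 min. The median difference over all genes was 0.03. At least a 2-fold fall was reached by 82 of the 145, against 232 of all 5449 genes. These 82 are 56.6% of the lists and 35.3% of all such falls, and 9 more list genes read 2-fold lower without passing. The spread that sets their error was small before the pulse and larger after it. Their median SD among the 3 fermentations was 0.064 at steady state, 0.22 at 7 min and 0.31 at 24 min, against 0.067, 0.090 and 0.082 for all genes. Their median standard error was 0.29, against 0.13 for all genes and 0.19 for the nitrogen lists.

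Few genes for the ribosomal proteins themselves passed the test. Of 128 genes for cytosolic ribosomal proteins, 6 fell (4.7%, against 15% of all genes), 0 rose and the median was -0.10. The list's median level at 3 min was 14.07, near the top of the scale, where differences can be understated. The largest of these falls were in RPL22B, which read 12.63, 12.77, 12.00, 11.05 and 9.68 from steady state to 14 min (-1.72 ± 0.21), and in RPS9A (-1.37 ± 0.22). RPS14B (-0.54) and RPS27A (-0.34) also fell but did not pass against the steady-state array of BY005. Mitochondrial ribosomal proteins had 11 of 67 genes lower (16.4%, near the 15% of all genes), 1 higher and a median of -0.10. RSM22 fell by 0.74 and MRPL20 by 0.71, and MRPL20 read -0.41 against the steady-state array. MRP21 (-0.63) and RSM27 (-0.58) fell too but did not pass against that array, where they read -0.31 and -0.27.

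Translation factors had 11 of 35 genes lower, 0 higher and a median of -0.23. GCD14 fell 2.33-fold (-1.22 ± 0.19) and GCD10 1.98-fold; their proteins form a tRNA methyltransferase, not an initiation factor. NIP1, for a subunit of initiation factor 3, fell 2.22-fold (-1.15 ± 0.20) and GCD1, for a subunit of initiation factor 2B, 1.46-fold. Of 21 genes for tRNA synthetases, 0 passed and the median was -0.07.

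Of 32 genes of the TORC1 pathway itself, 13 rose, 2 fell and the median was 0.25. Both falls were in regulators of ribosome genes: TOD6, which encodes a repressor of ribosome assembly genes, fell 13.3-fold, from 9.84 to 6.11 (-3.73 ± 0.73, adjusted p = 0.0064), and IFH1, for a coactivator of ribosomal protein genes, fell 2.98-fold (-1.58 ± 0.22). DOT6, the paralog of TOD6, read 0.47 and did not pass; it was picked out after its value was seen. YAK1, for a kinase restrained by protein kinase A, rose 2.91-fold (1.54 ± 0.25), and GIS1, for an activator of stationary-phase genes, 2.69-fold (1.43 ± 0.18). For comparison, of 7 genes often used to normalise expression, 0 rose and 2 fell, TAF10 (-0.52 ± 0.12) and TRS65 (-0.46 ± 0.08), with a median of 0.11. Against the steady-state array TAF10 did not pass (-0.25) and TRS65 read -0.28.

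Autophagy and vacuolar hydrolase genes were higher, with 22 of 33 higher, 3 lower and a median of 0.72. ATG8, for the ubiquitin-like protein of the autophagosome membrane, rose 3.00-fold (1.58 ± 0.28), from 10.22 to 11.80. ATG7, for the enzyme that activates it, rose 3.19-fold, ATG29 3.35-fold and PRB1, for vacuolar protease B, 2.59-fold (1.37 ± 0.19). The 3 genes that fell were ATG5 (-0.69), ATG41 (-0.68) and ATG10 (-0.51).

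Genes of the citric acid cycle and of retrograde signalling, which adjusts that cycle to nitrogen supply, had 12 of 17 higher, 0 lower and a median of 0.44. CIT1, for mitochondrial citrate synthase, rose 2.45-fold (1.29 ± 0.19), IDH2, for isocitrate dehydrogenase, 2.22-fold, CIT2, for the peroxisomal citrate synthase, 1.95-fold (0.96 ± 0.26) and ACO1, for aconitase, 1.85-fold. Among 43 respiratory genes, 12 rose (27.9%, against 18.4% of all genes), 1 fell (HAP3, -0.55) and the median was 0.21. CYC7, for the second form of cytochrome c, rose 4.57-fold (2.19 ± 0.46), and NDI1, for the internal NADH dehydrogenase, 2.46-fold. RIP1, for the Rieske protein, rose 2.03-fold. HAP4, for the limiting subunit of the activator of respiratory genes, stood at 9.64, 9.49, 10.61, 11.34 and 10.13 from steady state to 14 min. It rose 3.62-fold between 3 and 10 min (1.85 ± 0.22, adjusted p = 0.0026) and had lost most of that by 14 min.

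Some genes that glucose represses were higher. Of 15 glyoxylate and gluconeogenic genes, 6 rose, 0 fell and the median was 0.32. CRC1, for a carnitine carrier, rose 3.51-fold, MLS1, for malate synthase, 3.15-fold, MDH2, for cytosolic malate dehydrogenase, 2.77-fold and REG2, for a phosphatase subunit, 1.81-fold. CRC1 and MLS1 stood at 6.11 and 6.15 at 3 min, close to the background. Of 19 genes for hexose transport and its control, 9 rose, 0 fell and the median was 0.50. MTH1, for a repressor of hexose transporter genes, rose 4.06-fold (2.02 ± 0.24), HXK1, for a hexokinase, 3.36-fold (1.75 ± 0.24), HXT5, for a transporter of slow-growing cells, 2.80-fold and GLK1, for glucokinase, 2.29-fold.

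Biosynthetic lists stayed close to the median of all genes. Of 42 amino acid genes under the activator Gcn4, 2 rose, 4 fell (9.5%, against 15% of all genes) and the median was -0.02. ARG1 rose by 0.59, and LEU9 (-0.48), ARG3 (-0.45) and HOM3 (-0.35) fell. Of 22 purine and one-carbon genes, 0 rose, 5 fell (22.7%, against 15% of all genes) and the median was -0.11. IMD4, for IMP dehydrogenase, fell by 0.60, ADE4, for the entry step of purine synthesis, by 0.57, MTD1 by 0.52 and ADE8 by 0.30, and the call of ADE8 was lost in 8 of 17 other settings. Of 30 sulfur genes, 1 rose, 7 fell (23.3%, against 15% of all genes) and the median was -0.10. MET8 (-1.04 ± 0.12) and MET1 (-0.84 ± 0.15), both for enzymes of sirohaem synthesis, and SAM3, for a transporter (-0.53 ± 0.13), fell, and CBF1, for a regulator of the pathway, rose (0.63 ± 0.13). MET8 read 10.12, 9.83 and 10.29 at 7, 10 and 14 min, so its lowest level of these was at 10 min.

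The cell cycle list had 4 of 25 genes lower (16%, near the 15% of all genes), 1 higher and a median of -0.11. FAR1, for an inhibitor of G1 cyclin kinase, fell 2.12-fold (-1.09 ± 0.17), and CLB1, for a mitotic cyclin, by 0.69. The cyclin genes PCL1 (-0.47) and PCL9 (-0.35) fell with calls lost in 5 and 7 of 17 other settings, and the gene that rose was CDC28, for the main cyclin-dependent kinase. CLN3 stood highest in the list, at 1.06, but did not pass. Of 21 genes of meiosis and sporulation, programmes that nitrogen starvation opens in diploid cells, 6 rose, 0 fell and the median was 0.41. The share that rose was 28.6%, against 18.4% of all genes. RIM4, for an RNA-binding protein, rose 3.50-fold (1.81 ± 0.31), SPS4 2.27-fold and IME2, for a meiotic kinase, 1.65-fold. SPS100 rose by 0.70 (adjusted p = 0.046) but missed the threshold when fermentation was blocked (adjusted p = 0.068) and in 8 of 17 other settings in all, with values from 0.43 to 0.94.

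Several of the largest changes lay outside these lists. LEE1, for a zinc-finger protein of unknown function, stood at 7.14, 7.35, 9.30, 11.25 and 11.96 from steady state to 14 min and rose 14.9-fold between 3 and 10 min (3.90 ± 0.52, adjusted p = 0.0026). CIN5, for a transcription factor of the AP-1 family, read 9.35, 8.41, 11.26, 12.03 and 11.02. It rose 12.2-fold (3.61 ± 0.63), but its 3 min level lay 0.93 below steady state, and against steady state the difference was 2.68. YNL194C, for a membrane protein, rose 8.20-fold (3.04 ± 0.43). Among the falls, RRP36, for a factor of early rRNA processing, went from 9.82 to 6.18 (12.5-fold) and YNL162W-A, of unknown function, from 9.58 to 6.05 (11.6-fold). AQR1, for a plasma membrane exporter that also secretes amino acids, read 12.10, 12.22, 11.03, 8.69 and 6.77, an 11.5-fold fall (-3.53 ± 0.48). VTS1, for an RNA-binding protein that directs mRNA decay, fell 9.41-fold, YGR079W, of unknown function, 8.76-fold and JJJ3, for a factor of diphthamide synthesis, 8.56-fold (-3.10 ± 0.75, adjusted p = 0.014).

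The 7 min array held a larger part of the rises than of the falls. If a level changed by equal log2 steps each minute, 57.1% of the difference between 3 and 10 min would be present at 7 min. Among the 276 genes that rose at least 2-fold, the share at 7 min had a median of 51.3% and an interquartile range of 42.7% to 63.5%, and 102 genes lay above 57.1%. Among the 232 that fell at least 2-fold the median was 36.2%, the interquartile range 32.5% to 41.6%, and 5 genes lay above it. For the genes of a list that changed at least 2-fold, the median share was 66.7% for allantoin and urea use, 65.8% for nitrogen permeases, 52.3% for trehalose and glycogen and 48.7% for stress genes. It was 35.4% for the processome and 36.2% for large-subunit assembly. Within the nitrogen genes, DIP5 had 80.0% and PUT1 82.1% of the rise at 7 min, and OPT2 40.0% and GDH3 39.9%. DIP5 and PUT1 were bright at 7 min, at 12.74 and 13.17, and OPT2 and GDH3 were dimmer, at 8.82 and 8.79. Rises of bright genes can be understated, and the part of brightness in these shares was not tested. After 10 min the falls went on: at 14 min 226 of the 232 were lower still, and the median over all 232 was -1.17 against 10 min. Of the 276 rises, 198 were higher still, and the median over all 276 was 0.17. These paths share the 3 and 10 min arrays with the comparison and are given without a test. The 7 min array of BY005 read 4.24 on the poly-A spike controls, against 7.04 to 8.66 on the other 13 arrays, and the part of this in the shares was not tested.

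**Figure D4:**
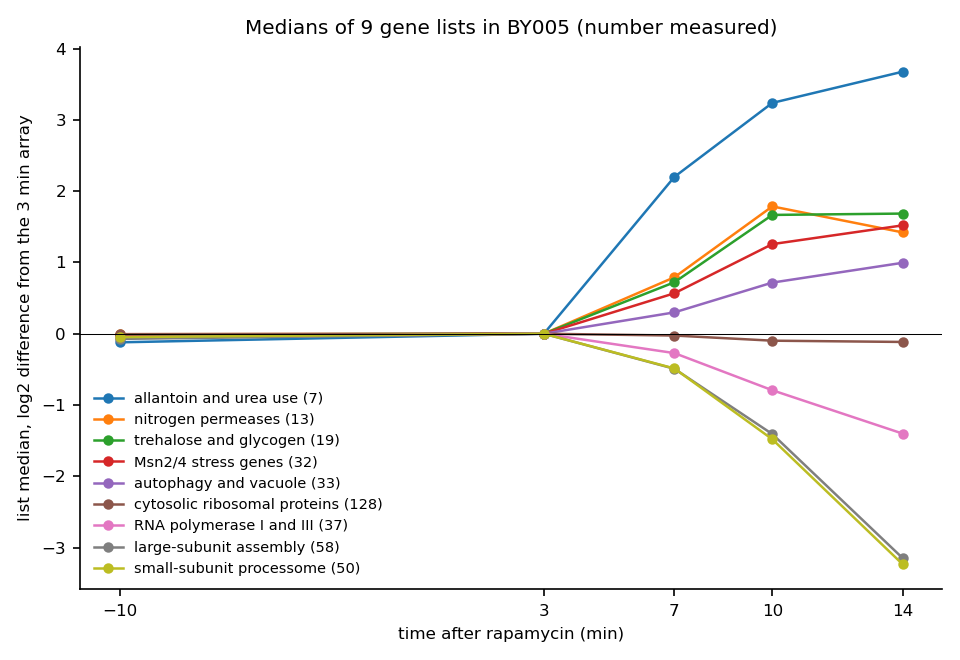
Median log2 difference from the 3 min array for 9 gene lists on the BY005 arrays at steady state (-10 min), 7, 10 and 14 min, with the number of measured genes in brackets. The allantoin and urea list stands at 2.20 at 7 min and 3.24 at 10 min, and the processome list at -0.49, -1.48 and -3.24 at 7, 10 and 14 min.

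The other fermentations were not sampled at 3 or 10 min, but their 7 min arrays, set against their own steady state, are on neither side of the comparison. These arrays did supply part of the error of each difference, so the genes called were not chosen independently of them. A gene on which the cultures differ at 7 min gets a larger error and is called less readily. The shares below were not tested. Of the 1002 genes that rose in BY005, 834 (83.2%) read higher at 7 min in both BY006 and BY007, against 41.6% of all genes. Of the 816 that fell, 347 (42.5%) read lower in both, against 17.2% of all genes. Among changes of at least 2-fold the counts were 250 of 276 rises (90.6%) and 126 of 232 falls (54.3%). All 232 falls read lower in BY007 and 126 in BY006. The sizes differed between the cultures. At 7 min the rises of at least 2-fold had a median of 0.76 in BY005, 0.22 in BY006 and 0.55 in BY007, and the falls medians of -0.47, -0.01 and -0.44. DAL4 read 3.96, 1.77 and 3.35 above its own steady state at 7 min in BY005, BY006 and BY007, and DAL80 3.33, 2.13 and 3.40. RRN11 read -1.68, -0.39 and -1.38, REI1 -1.11, -0.08 and -1.05, and UTP15 -0.98, -0.13 and -0.70. In BY006 the rises of the nitrogen genes were thus visible at 7 min, while the ribosome-making lists as a whole had not fallen. Their medians there were 0.00 for the processome, 0.04 for large-subunit assembly and 0.03 for the polymerases.

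**Figure D5:**
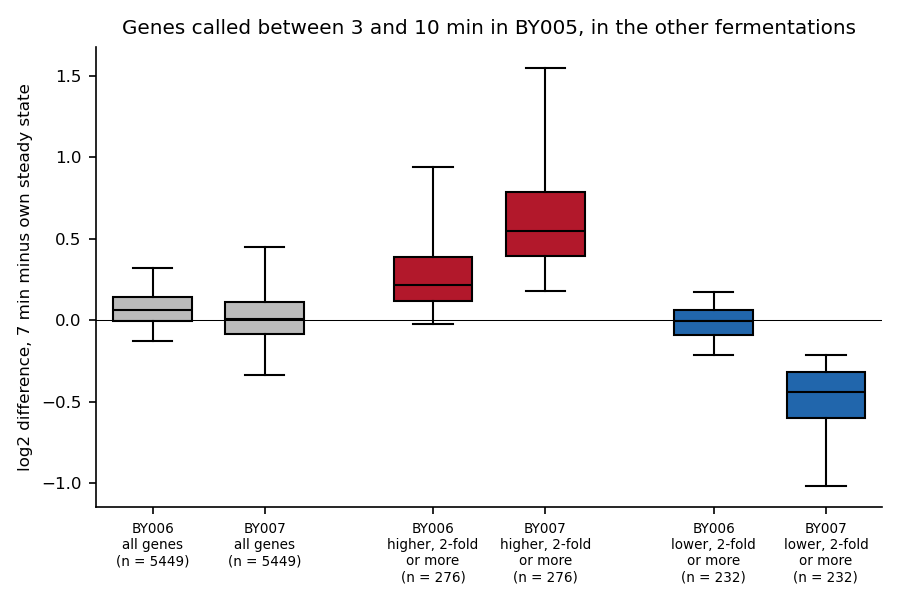
Log2 difference between the 7 min and steady-state arrays of BY006 and of BY007, for all 5449 genes and for the genes at least 2-fold higher (276) or lower (232) at 10 min than at 3 min in BY005. Boxes span the quartiles with the median as a line, and whiskers reach the 5th and 95th percentiles over genes. The falling genes have a median of -0.01 in BY006 and -0.44 in BY007.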

How the data were processed

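Biotin-labelled RNA from 20 mL of quenched culture was hybridised to Affymetrix Yeast Genome 2.0 arrays, 14 in all from 3 fermentations. The authors deposited RMA intensities on a linear scale, and the submitters' processing notes name the package affy and R 2.10.0. The log2 was taken here. The platform annotation ties 5498 of the 10928 probe sets to a single budding yeast gene; 47 genes had several and were averaged, which left 5449 genes. Another 1746 fission yeast probe sets gave the background. The R64 gene table updated 12 symbols.

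The test was limma 3.58.1 (functions lmFit and eBayes, R 4.3.3) with 1 coefficient for each of the 8 times, fitted to the 14 arrays together without a block. The contrast was 10 min minus 3 min, with Benjamini-Hochberg adjustment over 5449 genes and 6 residual degrees of freedom, to which the prior added 2.43. Each lone array was assumed to vary like the replicated times, and the number of arrays limits the precision. The fit was checked on simulated data. Same-fermentation arrays are from the same culture by their labels, and their deviations from the time means correlated across genes with r between -0.16 and 0.53; the block is an alternative.

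The comparison and its 27 gene lists were chosen with earlier results of these data known, so no list was tested. Named genes were the 15 largest rises and falls above background, the 4 largest called changes of each list, and 13 fixed genes (DAL80, GAT1, GAP1, MEP2, GLN1, DIP5, CIT2, HSP12, CTT1, RPL22B, UTP13, NSR1 and MET8). Other genes named complete small counts or were picked after their values were seen. Genes with no specific probe set, such as FPR1 and DUR1,2, were not analysed here, and neither were promoter sequences.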

Additional observations from a re-analysis of the deposited data

How the results depend on the processing

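The counts of 1002 higher and 816 lower genes stayed within 1.5 times under all 17 alternatives. Leaving out each array of a replicated time gave 895 to 1072 higher and 713 to 859 lower genes, and the other settings 991 to 1185 and 646 to 967. With the fermentation as a replicate block, the counts were 1185 and 883, and of the named genes only UTP13 and SPS100 lost their call. With the steady-state array of BY005 in place of the 3 min array they were 1143 and 646, and quantile normalization of the genes alone gave 1017 and 967. The share of higher genes among those called was 55.1% as reported, 51.3% with that normalization and 56.4% with median centring. Leaving out an array of a replicated time, the fermentation block and the intensity trend change the error but not the difference itself. Every setting keeps the 10 min array, so a kept sign does not test that array. Of 117 named genes 115 passed, 101 of them in every setting, and none changed sign. The 14 that lost their call in at least 1 setting were RPS14B, RPS27A, MRP21, RSM27, ADE8, PCL1, PCL9, SPS100, PRE4, RPN7, SEM1, TAF10, GAP1 and UTP13, and the steady-state baseline accounted for 13 of the 55 losses. The cause was not tested. No list median larger in size than the spread between replicates changed sign, and smaller ones were not checked for sign. Over all lists and settings, 8 medians moved by more than that spread. Examples are mitochondrial ribosomal proteins (-0.00 with the steady-state baseline) and meiosis genes (0.18 with quantile normalization). The description of promoter motifs was not run. Levels under 5.77 cannot be told from background, and 108 genes lay there on both arrays.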

Other observations

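Most of the rises that reached 2-fold by 10 min were still up at 14 min, but 5 of the 276 had dropped back by at least 1 log2 unit: YKR075C, HAP4, YJR115W, FMP48 and CIN5. FMP48, for a presumed mitochondrial kinase, read 9.39, 8.69, 10.71, 10.65 and 9.48 at steady state, 3, 7, 10 and 14 min and 8.35 at 24 min. YKR075C, of unknown function, read 9.19, 8.86, 11.02, 10.51 and 9.15 at the same times and 8.48 at 24 min. YJR115W, also of unknown function, read 7.92, 7.94, 9.30, 9.61 and 8.44. In BY006 and BY007 these 5 genes also read higher at 7 min than at steady state, FMP48 by 0.61 and 1.09 and HAP4 by 0.37 and 0.77. Of the 232 falls of at least 2-fold, 0 had recovered by 1 log2 unit at 14 min. The rise and the drop back share the 10 min array, and its part in both was not tested. At 7 min all 5 stood above their 3 min level, but that difference shares the 3 min array with the rise. YKR075C, HAP4, FMP48 and CIN5 read lower at 3 min than at steady state, and the part of this in the rise was not tested.

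Some pairs of related genes moved in opposite directions, a pattern picked out after the values were seen. The pairs below were taken from genes whose names differ only in the last character. Such names do not always mark related genes, and pairs that moved together were not counted. Of all genes 18.4% rose and 15% fell, so opposite calls also arise among unrelated genes. RAS1 fell (-0.77 ± 0.14, adjusted p = 0.0052) while RAS2, for the other Ras protein upstream of protein kinase A, rose (0.48 ± 0.08, adjusted p = 0.0033). ATF1, for an alcohol acetyltransferase, rose by 1.13 ± 0.18 and ATF2 fell (-0.90 ± 0.20). PPZ1, for a protein phosphatase, fell (-0.31 ± 0.07) and PPZ2 rose by 0.66 ± 0.20. MMT1, for a mitochondrial metal transporter, fell (-0.43 ± 0.12) and MMT2 rose by 0.70 ± 0.17. GPX1, for a glutathione peroxidase, rose by 1.23 ± 0.28 and GPX2 fell (-0.39 ± 0.09). The probe sets of a pair are different, so only directions are compared.

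The largest falls can also be written as rates. Read as a constant rate between 3 and 10 min, the 15 largest falls correspond to a halving of the intensity every 1.78 min (RRN11) to 2.26 min (JJJ3), and between 7 and 10 min to a halving every 1.24 min for REI1 and 2.06 min for YGR079W. These are rates of change of a log2 array signal from 1 array a time, not measured half-lives.

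Among genes in none of the lists, BDH2, for a dehydrogenase related to butanediol dehydrogenase, rose by 2.82 ± 0.46, AMD2, for a presumed amidase, by 2.51 ± 0.32 and MPC3, for a subunit of the mitochondrial pyruvate carrier, by 2.32 ± 0.44. MPC3 read 10.65 at 7 min and 10.57 at 10 min, so its rise was complete at 7 min. BMT6, for a methyltransferase of rRNA, fell (-2.99 ± 0.47), as did EFG1 (-2.88 ± 0.42), CGR1 (-2.57 ± 0.36) and BUD22 (-2.54 ± 0.54), for factors of rRNA processing.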
